A study of Homo sapiens with 4 samples.

Results

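Ribosomal protein pseudogenes are the subject here: 890 of the 135750 rows tested on the arrays carried a single gene symbol made of RPL or RPS, digits, an optional letter, then P and digits, such as RPL7AP30. RefSeq lists 1 of these 890 rows, RPS19BP1, as a protein-coding gene (RPS19 binding protein 1), so it is described on its own and the counts below rest on 889 rows. All 889 symbols were found in RefSeq's human gene table, where 863 rows are annotated as pseudogenes and 26 as transcribed pseudogenes. The 889 rows stood for 874 symbols and 67 parent genes, 630 rows for 42 parents of the large ribosomal subunit and 259 rows for 25 parents of the small subunit. They were chosen by a name pattern that uses no measured value, though with earlier results of these data known.

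Ribosomal proteins surround the ribosomal RNAs of the large and the small subunit, and their mRNAs are among the most abundant in growing cells. Most of their pseudogenes are processed pseudogenes: copies of a spliced mRNA that were reverse transcribed and inserted elsewhere in the genome, and that therefore lack the introns of the parent gene. Such copies keep much of the parent's sequence, so the signal of an array row for a pseudogene can come from RNA of that locus, from the parent's mRNA or from both. The probe sequences were not used here, and these sources cannot be told apart in the values below.

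The study treated H929 (NCI-H929), an established line of human multiple myeloma, a plasma cell cancer, with meayamicin B. Meayamicin B inhibits pre-mRNA splicing by binding SF3B, a component of the U2 small nuclear ribonucleoprotein. Total RNA of 2 untreated samples and of 2 samples given meayamicin B at 3 nM for 8 h was measured, with 1 array a sample and values on the log2 scale. All samples came from that 1 line in culture. Whether the replicates were separate cultures is not stated in the labels, and the p-values below therefore reflect array-to-array spread alone, possibly of technical origin.

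The line's labelled identity was checked against 9 plasma cell markers, and 9 of 9 (among them SDC1, IRF4 and XBP1) exceeded background in both arrays of at least 1 group. Of 18 measured markers of 5 other cell types, 8 exceeded it, namely CD3E, PAX5, FCN1, CSF1R, HBB, HBA1, COL1A1 and COL1A2, and their part in the results was not tested. Background was set for each array at the 95th percentile of its 612 negative control rows, and this level was 4.50 and 4.76 without treatment and 5.03 and 5.13 with it.

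About 2 in 5 ribosomal protein pseudogene rows gave a signal above background. Of the 889 rows, 405 and 372 exceeded it without treatment (45.6% and 41.8%), and 345 and 331 with treatment (38.8% and 37.2%). Over all rows tested the corresponding shares were 25.6% and 23.0%, then 20.3% and 19.7%. In both arrays of at least 1 group, 370 of 889 rows (41.6%) were above background, against 22.5% of all rows tested.

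The background level was itself higher in the treated arrays. All 370 rows were above background in both untreated arrays, 327 in both treated arrays, and 43 were above it in the untreated group alone, so these 43 entered through the group in which they stood higher against its controls. Against 1 common level of 4.85 for the 4 arrays, 354 rows passed in the untreated group and 349 in the treated group. A count of 327 rows passed in all 4 arrays, 80 in 1 to 3 arrays and 482 in no array. Exactly 100 rows exceeded even the highest negative control in every array.

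By subunit, 254 of 630 large-subunit rows (40.3%) and 116 of 259 small-subunit rows (44.8%) were above background in a group. Of the 26 rows that RefSeq annotates as transcribed pseudogenes, 15 were above background, against 355 of the other 863. These differences were not tested.

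**Figure D1:**
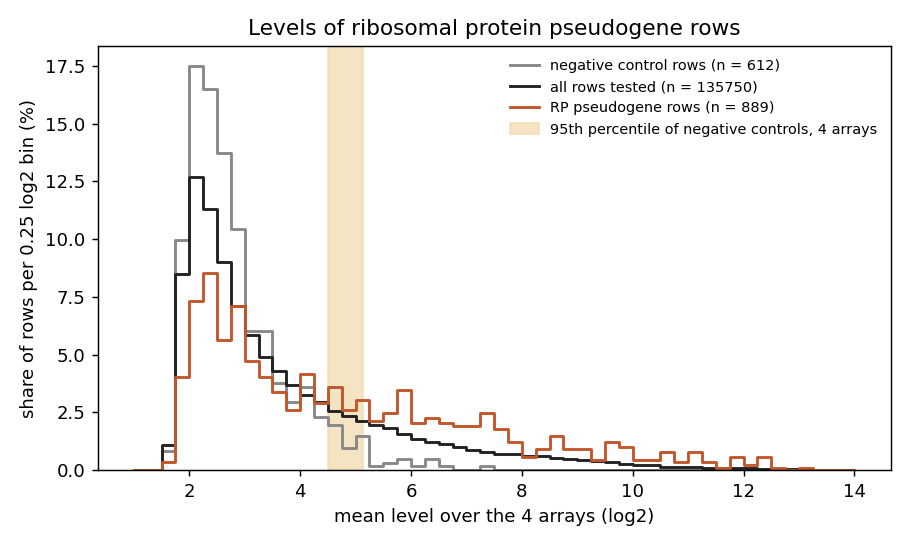
Share of rows (vertical axis, percent per 0.25 log2 bin) against mean level over the 4 arrays (horizontal axis, log2) for 612 negative control rows, 135750 rows tested and 889 ribosomal protein pseudogene rows, with the 95th percentiles of the negative controls shaded. The pseudogene rows peak at low levels like all rows, but 41.6% were above background in a group, and their highest row lay at 13.10.

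The share above background varied between parents. Among the 32 parents with at least 10 pseudogene rows, which together held 745 rows, it ran from 0% to 80.0%. RPL23A, whose protein lies near the exit of the peptide tunnel, had the most rows, 93, of which 40 were above background. RPL7 had 24 of 59 rows above background, RPL12 had 20 of 48, RPS3A had 15 of 37 and RPL5 had 16 of 35.

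Other parents stood at the ends of this range. RPS29 had 0 of 10 rows above background, RPL30 had 1 of 15, RPL31 had 3 of 30 and RPL21 had 11 of 57. RPS10 had 8 of 10, RPS2 had 15 of 19, RPL3, a large-subunit protein near the peptidyl transferase centre, had 9 of 13, and RPS26, a protein at the mRNA exit channel, had 14 of 23. Among the smaller sets, RPL35 had 6 of 6 rows above background, RPL10A had 5 of 5, RPL41 and RPL24 each had 4 of 4 and RPL13A had 8 of 9. Parents with few copies can reach 0% or 100% with few rows, and 7 of the 67 had all of their rows above background and 6 had none.

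**Figure D2:**
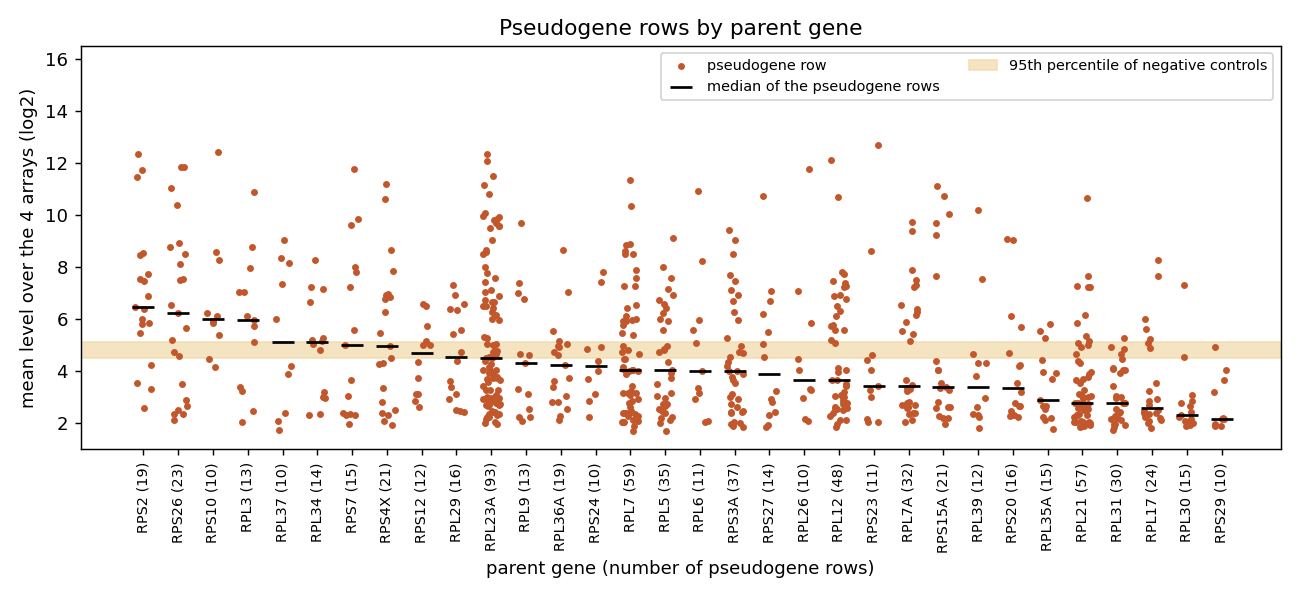
Mean level over the 4 arrays (vertical axis, log2) of each pseudogene row, grouped by parent gene (horizontal axis, number of rows in parentheses), for the 32 parents with at least 10 rows; black dashes are medians and the band is the 95th percentile of the negative controls. Rows of the same parent spread from under the band to far above it in most families, and 0 of the 10 RPS29 rows were above background.

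Between meayamicin B and untreated, 0 of the 889 pseudogene rows passed an adjusted p of 0.05 in limma, with Benjamini-Hochberg adjustment across the 135750 rows. With limma's default prior 0.0162% of all rows passed, so few rows passed anywhere. With an intensity-dependent and robust prior, called the trended fit below, 1.17% of all rows passed and again 0 of the pseudogene rows. At an unadjusted p under 0.05 the default fit picked 22 rows (2.47%; 6 higher and 16 lower after treatment), against 9.42% of all rows, and the trended fit picked 23, against 9.97%.

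The differences themselves were small. The median difference, treated minus untreated, was 0.0044 on the log2 scale over the 889 rows (interquartile range -0.12 to 0.12), with 454 rows higher and 435 lower. Over all rows tested the median was 0.02 (interquartile range -0.16 to 0.20). Single rows ran from -0.90 to 0.79. No pseudogene row reached a 2-fold difference at any level, while 2006 of all rows tested did.

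Rows with the smallest p-values were dim. RPL31P46, a copy of the large-subunit gene RPL31 (chromosome 11 at 74919575 to 74919933), read 4.33 and 4.65 untreated and 3.55 and 3.62 treated. Its groups did not overlap, but it was above background in 0 of the 4 arrays. The difference was -0.90 ± 0.20 (SE, n = 2 arrays a group), with limma adjusted p = 0.208 in the default fit and 0.184 in the trended fit, the smallest of any pseudogene row in each. Of the 22 rows with an unadjusted p under 0.05, 17 were not above background in either group.

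**Figure D3:**
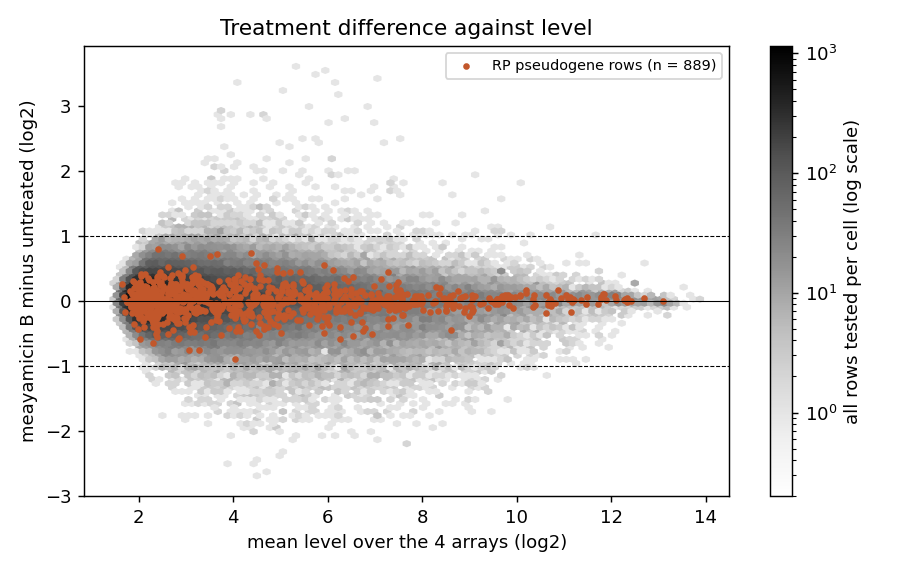
Treated minus untreated difference (vertical axis, log2) against mean level over the 4 arrays (horizontal axis, log2) for all 135750 rows tested (grey cells, log count) and the 889 pseudogene rows (orange), with dashed lines at a 2-fold change. The pseudogene rows run from -0.90 to 0.79, all between the dashed lines, and narrow toward 0 at high levels.

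Among rows of like level the pseudogene rows differed less between treated and untreated arrays than other rows did. At a mean level of 7 to 8 the median absolute difference was 0.069 over 66 pseudogene rows and 0.25 over 4121 other rows. At 8 to 9 it was 0.084 over 34 rows against 0.24, at 9 to 10 it was 0.054 over 32 rows against 0.19, and at 10 to 15 it was 0.045 over 43 rows against 0.095. The spread between replicates at 7 to 8 was closer, with a median absolute difference between replicates of 0.17 for pseudogene rows and 0.19 for other rows. This replicate spread was 0.17 against 0.16 at 8 to 9, 0.15 against 0.14 at 9 to 10 and 0.092 against 0.097 at 10 to 15. In dimmer bins replicates of pseudogene rows also differed less: 0.21 against 0.23 at 6 to 7, 0.20 against 0.27 at 5 to 6 and 0.22 against 0.30 at 4 to 5. The median absolute difference between treated and untreated arrays in these dimmer bins was 0.12 against 0.24, 0.13 against 0.22 and 0.18 against 0.22 in that order. Pseudogene rows of other abundant mRNAs, described at the end, also lay under the other rows, with 0.13 at 7 to 8, 0.12 at 8 to 9, 0.086 at 9 to 10 and 0.051 at 10 to 15. These values are descriptions, since rows share arrays and are not replicates, and nothing here was tested as particular to ribosomal protein pseudogenes.

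Over the 370 rows above background the median absolute difference between treatments was 0.093. Replicates of the untreated group differed by a median of 0.11 and those of the treated group by 0.19. The treatment difference is between means of 2 arrays and the replicate differences are between single arrays. By itself this makes the treatment difference smaller, so the values are not on an equal footing. The groups did not overlap in 111 of these 370 rows (30.0%; 45 higher and 66 lower after treatment), against 51.5% of all 30594 rows above background (22.4% higher and 29.1% lower). Of the 370 rows, 43 had passed background in the untreated group alone and 0 in the treated group alone. This filter can tilt the split toward lower. A 2-fold difference was reached by 0 of 370 pseudogene rows and by 1281 of the 30594 rows, 4.19%. The 95% confidence interval of the difference lay within 2-fold either way for 365 of the 370 rows, or 98.6%, against 78.6% of all rows above background.

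The differences of the pseudogene rows were also set side by side between replicates. Treated minus untreated differences taken within replicate 1 and within replicate 2 correlated at r = 0.08 over the 370 rows and at r = 0.60 over the 30594 rows, and with replicate numbers crossed at 0.00097 and 0.55. These are correlations across rows of the same 4 arrays and serve as a description.

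The rows with the largest differences, among those above background whose groups did not overlap, lay within 0.59 of 0. The 8 highest ran from 0.34 to 0.56 and the 8 lowest from -0.59 to -0.43. Their limma adjusted p-values lay between 0.459 and 0.717 in the default fit and between 0.310 and 0.668 in the trended fit. Leaving out 1 array moved 11 of these 16 differences by more than 1.5 times: RPL23AP47 went from 0.34 to 0.11 without treated replicate 1, and RPL21P131 from -0.50 to -0.18 without untreated replicate 1.

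RPL32P1, a copy of the large-subunit gene RPL32 (chromosome 6 at 33079398 to 33079909, within the spans of HLA-DPA1 and HLA-DPB1, which encode the chains of a class II antigen-presenting molecule), had the highest difference. It read 5.83 and 5.48 untreated and 6.25 and 6.17 treated. Both treated values lay above both untreated values, by 0.56 ± 0.21 in the means (SE), with limma adjusted p = 0.459.

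RPS20P33, a copy of the small-subunit gene RPS20 within the span of PACS2 (chromosome 14 at 105374621 to 105374971), read 6.10 and 5.66 untreated and 6.35 and 6.35 treated, a difference of 0.47. RPS6P25, a copy of RPS6, the ribosomal protein phosphorylated downstream of mTOR, lies within the span of GCDH, which encodes a mitochondrial dehydrogenase. It read 7.12 and 7.01 untreated and 7.29 and 7.72 treated, a difference of 0.44, while the row of GCDH itself differed by -0.31. The other 5 highest rows were RPL29P7, RPL10AP5, RPS26P2, RPL29P33 and RPL23AP47, with differences of 0.45, 0.44, 0.37, 0.35 and 0.34 in that order.

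On the lower side, RPS3AP34, a copy of the small-subunit gene RPS3A, read 6.35 and 6.77 untreated and 6.08 and 5.86 treated. All 4 values were above background and the groups did not overlap, with a difference of -0.59 ± 0.22 (SE) and limma adjusted p = 0.467. RPL7P46, a copy of the large-subunit gene RPL7 within the span of CLEC16A (chromosome 16 at 11026961 to 11028561), read 6.98 and 6.62 untreated and 6.30 and 6.22 treated, a difference of -0.54.

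RPL7P21 had the strongest signal among these 16 rows. It lies on chromosome 5 at 143319595 to 143333790, within the span of NR3C1, the glucocorticoid receptor gene, and read 8.83 and 8.85 untreated and 8.58 and 8.21 treated. The untreated values lay closer together than the treated ones, and the difference was -0.44. The row of NR3C1 itself differed by 0.06. RPS3AP14, RPL7P33, RPL21P131, RPS27AP1 and RPL39P25 made up the rest, with differences of -0.51, -0.50, -0.50, -0.47 and -0.43 in that order, and of these RPL21P131 and RPL39P25 were above background in the 2 untreated arrays only. For each parent the brightest row that named it, alone or with other genes, was set beside these values. Those of the 8 lower pseudogenes did not share their size of difference where one was measured, running from -0.01 to 0.21. Those of the 8 higher ones ran from -0.04 to 0.10. Some dimmer rows of the same parents lay outside these ranges, such as RPS3A at 0.28, RPL21 at -0.03 and RPS26 at 0.12.

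**Figure D4:**
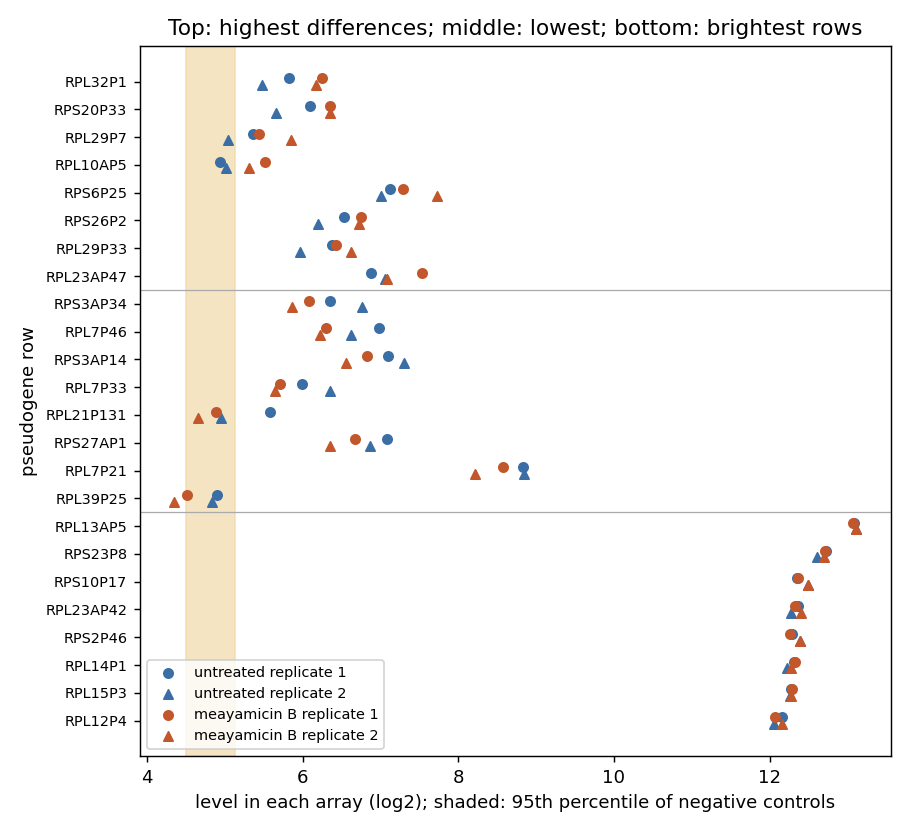
Level in each array (horizontal axis, log2) of the 8 pseudogene rows with the highest differences (top), the 8 with the lowest (middle) and the 8 with the highest mean signal (bottom); blue is untreated, orange is meayamicin B, circles are replicate 1, triangles replicate 2, and the band is the 95th percentile of the negative controls. In the bottom 8 rows the 4 values nearly coincide, with differences from -0.02 to 0.05.

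The 8 rows with the highest signal read almost the same in all 4 arrays, at means from 12.11 to 13.10. RPL13AP5, annotated as a transcribed pseudogene of the large-subunit gene RPL13A (chromosome 10 at 96750266 to 96750923), read 13.09 and 13.12 untreated and 13.08 and 13.11 treated. The groups overlapped, and the difference of -0.01 had a 95% confidence interval of -0.44 to 0.42. RPS23P8, a copy of RPS23, a protein of the decoding centre (chromosome X at 70962936 to 70963342), read 12.73 and 12.61 untreated and 12.71 and 12.70 treated.

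RPS10P17 (chromosome 9 at 125263536 to 125264101) read 12.36 and 12.49 untreated and 12.36 and 12.49 treated. RPL23AP42, RPS2P46, RPL14P1, RPL15P3 and RPL12P4 completed the 8, and their parents encode proteins of the large subunit except RPS2 of the small. Differences of the 8 rows lay between -0.02 and 0.05, and their 95% confidence intervals all lay between -0.46 and 0.48. The brightness of a row depends on its probes, so these levels rank array signals and not amounts of RNA.

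Differences by parent were also close to 0. Among the 32 parents with at least 10 rows, the medians of their pseudogene rows ran from -0.07 (RPL21) to 0.13 (RPS12). RPL23A's 93 rows had a median of 0.02 and a range of -0.45 to 0.73. RPL7's 59 rows had a median of -0.05, and 3 of them had an unadjusted p under 0.05. RPS2's 19 rows, of which 15 were above background, had a median of -0.05 and ran from -0.25 to 0.16.

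The parent genes were read beside their copies. A row with the parent's symbol alone existed for 48 of the 67 parents, and where there were several the brightest was read. Of these 48 rows 47 were above background, all but that of RPL4. Limma called 0 of the 48 in either fit, against 0.0162% and 1.17% of all rows tested. An unadjusted p under 0.05 was found for 2 of the 48 (RPL5 and RPL4), against 9.42% of all rows. Dimmer rows of the same parents are outside this count, among them a row of RPL7A with a difference of -0.58 (limma unadjusted p = 0.0163). The median difference of the 48 rows was 0.02, with 33 rows higher and 15 lower after treatment. For RPL4, RPL5, RPS3A and RPS29 a row shared with other genes was far brighter than the row alone. Means of the rows alone were 3.46, 6.13, 6.72 and 5.06 in that order, and of the shared rows 12.48, 12.22, 12.57 and 11.47. The shared rows of RPL4 and RPL5 differed between treatments by -0.04 and 0.02. For 876 pseudogene rows the parent had a row alone or shared with other genes, and the brightest such row was compared. Across them the pseudogene's and the parent's differences had a Spearman correlation of 0.08, given as a description.

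RPL5, whose protein forms a particle with the smallest ribosomal RNA of the large subunit and RPL11, showed the largest difference among these parents. Its own row read 5.85 and 5.71 untreated and 6.31 and 6.65 treated, higher in both treated arrays by 0.70 ± 0.21 (SE), with limma adjusted p = 0.335. A second row that names RPL5 together with the small nucleolar RNAs SNORD21 and SNORA66 averaged 12.21 untreated and 12.23 treated. The 35 pseudogene rows of RPL5 had a median difference of -0.05. The intact ribosomal protein genes as a list gave a single-symbol row for 51 of 79 genes, the brightest taken where there were several. Of these 51 rows, 50 were above background. Limma called 0 of the 51 in either fit, against 0.0162% and 1.17% of all rows tested. An unadjusted p under 0.05 was found for 2 (3.92%, against 9.42% of all rows). The median difference of the 51 rows was 0.02, with 34 higher and 17 lower.

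For 14 symbols the arrays held several rows, 29 in all. For 3 of the 14 symbols, the rows fell on both sides of background, and since brightness depends on the probes, their levels are given against the negative controls only. The 2 rows of RPL7AP30 (chromosome 4 at 112788023 to 112788900, within the span of ANK2) differed between treatments by 0.15 in the row above background in 0 arrays and by 0.09 in the row above it in 4. RPL10P1 likewise had 1 row above background in 0 arrays, with a difference of -0.04, and 1 above it in 4, with a difference of -0.11. Of the 3 rows of RPS3AP33, 1 was above background, with a difference of 0.17. Both rows of RPL7P47 were above background, with differences of -0.15 and 0.06, as were those of RPL23AP45, with 0.07 and 0.09. The remaining symbols with several rows were RPL14P5, RPL23AP64, RPL23AP66, RPL29P22, RPL34P1, RPL36AP48, RPS15AP6, RPS23P5 and RPS3P7, with differences between -0.24 and 0.25, and those of all 29 rows lay between -0.42 and 0.25.

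Some pseudogenes lie inside other genes. By RefSeq coordinates, and without regard to strand, 317 of the 889 rows lay within the span of a protein-coding gene, and 572 did not. Of the first, 141 (44.5%) were above background, and of the second, 229. Their median differences were 0.01 and -0.0033.

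For 183 rows the surrounding gene was a single one and its brightest single-symbol row was above background. The median difference of these host rows was -0.31, and it was 0.0084 for the pseudogene rows inside them, with r = 0.07 between both across the 183 rows as a description. Over all rows above background the median difference was -0.02. Whether the hosts differ from other expressed protein-coding genes was not tested. Of the 183 pseudogene rows, 89 were themselves above background, with a median difference of 0.0030. In 14 cases the host row was at least 2-fold lower in treated arrays. Of all 30594 rows above background, 4.19% differed by 2-fold or more in either direction. The trended fit called 13 of these 14 hosts and the default fit called 0, against 1.17% and 0.0162% of all rows tested. The hosts were picked by the same differences, so these calls are no separate result. The pseudogene rows inside the 14 hosts ran from -0.41 to 0.12, with a median of -0.0095. Of these 14 pseudogene rows 9 were above background, and those 9 ran from -0.07 to 0.10.

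RPS7P15, a copy of RPS7, lies within the span of STX18, which encodes a syntaxin of the endoplasmic reticulum. The STX18 row read 7.90 and 7.99 untreated and 6.60 and 5.67 treated, a fall of 1.81 with limma adjusted p = 0.0119 in the trended fit and 0.124 in the default fit. The RPS7P15 row read 7.82 and 7.76 untreated and 7.81 and 7.80 treated. The groups of RPS7P15 overlapped, with a difference of 0.02.

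RPL21P28, annotated as a transcribed pseudogene, lies within the span of DTL, the substrate receptor of a ubiquitin ligase that acts in DNA replication. The DTL row read 9.73 and 9.74 untreated and 8.30 and 8.01 treated, a difference of -1.58 with limma adjusted p = 0.0015 in the trended fit and 0.0751 in the default fit. The RPL21P28 row read 7.28 and 7.29 untreated and 7.26 and 7.17 treated, a difference of -0.07. RPS2P5 within the kinase gene TAOK3 read 11.54 and 11.43 untreated and 11.38 and 11.48 treated, beside a TAOK3 difference of -1.45. RPS19P3 within SNX6, a sorting nexin gene, read 8.43 and 8.17 untreated and 8.31 and 8.49 treated, beside an SNX6 difference of -1.16.

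**Figure D5:**
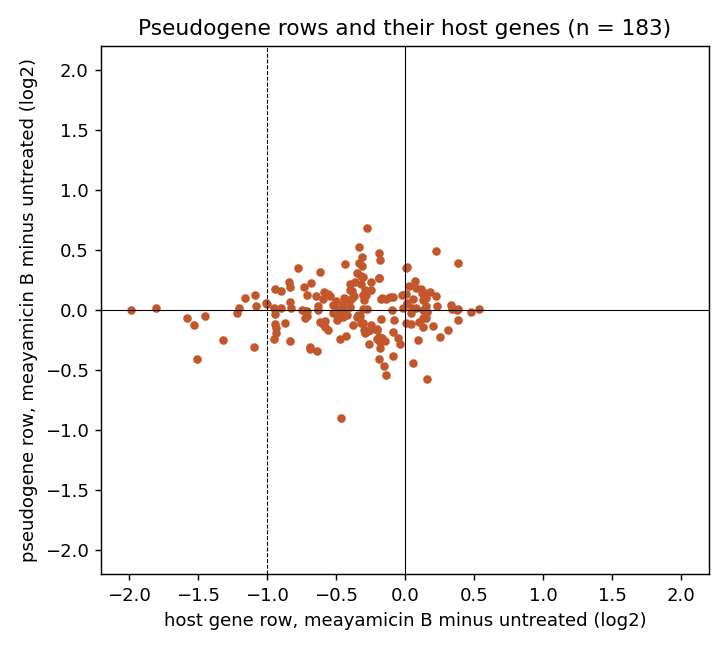
Treated minus untreated difference of the pseudogene row (vertical axis, log2) against that of the surrounding protein-coding gene's row (horizontal axis, log2) for 183 pseudogene rows with a single host above background; the dashed line marks a host 2-fold lower. Host rows run from -1.99 to 0.54, while the pseudogene rows in the 14 hosts left of the dashed line run from -0.41 to 0.12, and the 9 of them above background from -0.07 to 0.10.

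Pseudogenes of other abundant mRNAs were chosen by 31 symbol prefixes. Of 681 such rows, 259 (38.0%) were above background and limma called 0 in either fit. Their median difference was -0.01, and 30 rows (4.41%, against 9.42% of all rows tested) had an unadjusted p under 0.05. The groups did not overlap in 29.0% of these rows above background, against 51.5% of all rows above background. Among nuclear pseudogenes of mitochondrial genes, 36 of 331 rows (10.9%) were above background. Limma called 2 in the default fit, MTND1P14 and MTND2P12, and 3 in the trended fit, where MTCO1P39 was added. All 3 were higher after treatment, with differences of 3.38, 3.60 and 1.80 in that order. The shares over all rows were 0.0162% and 1.17%, and with any 1 array left out the default fit called 0 of the 331. The differences between these sets were not tested.

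RPS19BP1, the protein-coding row taken by the symbol pattern, read 7.07 and 7.30 untreated and 6.57 and 6.84 treated. Both treated values lay under both untreated values, with a difference of -0.49 ± 0.21 (SE), limma adjusted p = 0.529 in the default fit and 0.395 in the trended fit.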

How the data were processed

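The submitters' processing notes name RMA, Transcriptome Analysis Console and genome build hg38, without versions. The deposited values are log2 expression, 1 value a row and array, read from their range and the named method. RMA equalises the arrays' distributions, so a shift of all RNA would be removed, and it compresses dim rows. The number of arrays, 2 a group, limits the precision.

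Of 138745 rows, 2995 control rows were left out, 612 of them negative controls. Rows were named through the platform annotation. Types and coordinates come from RefSeq's gene table of GRCh38.p14, matched by symbol for all 889 pseudogene rows, since 380 had a gene ID in the annotation. The identifiers placed 2 rows on no chromosome and 1 on another than RefSeq (RPL14P5), and 4 rows had values identical to another.

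Both groups were compared with lmFit and eBayes (limma 3.58.1, R 4.3.3), with Benjamini-Hochberg adjustment over all 135750 rows, threshold 0.05. The default prior contributed 5.12 degrees of freedom beside the 2 residual ones. Printed SEs and intervals come from the default fit. The members, gene lists, background level and rows named were chosen with earlier results of these data known. Named rows are the 8 highest and 8 lowest differences among rows above background without overlap, the 8 with the highest mean, rows past the threshold (0), symbols with several rows, and parents. RPL31P46, RPS19BP1 and hosts were named after their values were seen.

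Both groups use replicate numbers 1 and 2. To check for pairing, deviations from the group mean were correlated between arrays of equal number (r = 0.02 for all rows, 0.07 for rows above background). No label ties a number to a batch, and the fit had no replicate block. Alternatives were each array left out, other background levels, the trended prior, the block, centring on ribosomal protein genes, repeated quantile normalization and dropping dim rows.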

Additional observations from a re-analysis of the deposited data

How the results depend on the processing

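The count of 0 pseudogene rows called by limma held under the trended prior, the replicate block with either prior and the filter on dim rows. It also held with centring on ribosomal protein genes, a repeated quantile normalization and RPS19BP1 included. Apart from the trended prior, no share of all rows called stands beside these counts, so they do not show stability by themselves. Fits with 1 array left out are not part of this comparison, since 1 group then holds a single array. With the replicate block the median difference was 0.0044 and 19 rows had an unadjusted p under 0.05, against 22 without it. That count was 13 with the filter on dim rows, which tests fewer rows by construction. It was 28 with the block and the trended prior together, and 33 with centring on ribosomal protein genes. The median difference moved to -0.073 when arrays were centred on ribosomal protein genes, which shifts all rows together (that of the 48 parents moved from 0.02 to -0.054), and ran from -0.04 to 0.04 with 1 array left out. Against the median of the negative controls, 691 rows were above background and 228 of these had groups without overlap. With 1 array left out, 371 to 405 rows were above background and 224 to 273 had no overlap, since a group of 1 array separates more easily by construction. The 2 mitochondrial pseudogenes called became 0 with any 1 array left out. The 16 rows with the highest or lowest differences kept their sign in 144 of 144 values, most of them by construction. These rows were picked for groups without overlap, so leaving out 1 array cannot reverse a sign. The trended prior, the block and the filter on dim rows leave the difference unchanged. Only centring and the repeated quantile normalization could have reversed a sign. With 1 array left out, 11 of the 16 moved by more than 1.5 times. Among them were RPS20P33 (0.47 to 0.25 without untreated replicate 2) and RPL29P33 (0.35 to 0.15 without the same array). Others were RPS6P25 (0.44 to 0.22 without treated replicate 2) and RPL7P21 (-0.44 to -0.26 without the same array). Low signal limits the rest: 482 of the 889 rows were above background in no array. Several alternatives (RPS19BP1 included, the trended prior combined with others, the common background level) were chosen after seeing the data.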

Other observations

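A further 14 rows named a ribosomal protein pseudogene together with other genes and were left out of the counts. Limma called 1 of these 14 in the trended fit, against 1.17% of all rows tested. The row called names PLCG1, a phospholipase gene, with RPL23AP81. It read 6.37 and 6.66 untreated and 5.07 and 4.76 treated, a difference of -1.60 ± 0.21 (SE), with limma adjusted p = 0.0106 in the trended fit and 0.0858 in the default fit. The row does not separate the genes it names.

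The pseudogenes of RPLP0, RPLP1, RPLP2 and RPSA, whose symbols the pattern does not take, had 78 rows. Of these 30 were above background, and limma called 0 in either fit, against 0.0162% and 1.17% of all rows tested. An unadjusted p under 0.05 was found for 4 (5.13%, against 9.42% of all rows), and the median difference of the 78 rows was -0.0052.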
